A study of Mus musculus with 5 samples.

Results

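The genes described here encode 44 proteins of blood plasma that are made in the liver: clotting factors and their inhibitors, complement components, and carriers such as albumin. They were named as a set by function, not by a rule on their expression, though with earlier results of these data known. They are 44 of the 46095 gene records for which FPKM values were deposited. FPKM stands for fragments scaled to the length of the gene and the depth of the library. The study asked what the loss of Srsf2, a splicing factor, does to the mouse liver, where HKO mice carry loxP-flanked Srsf2 alleles that are deleted in hepatocytes by Cre. RNA was sequenced as 1 library for each of 5 conditions, all C57BL/6 liver: an Srsf2f/f control and an HKO mouse at 2 months (2M), an Srsf2f/f control at 12 months (12M), and a non-tumor section and a tumor section of a mutant liver at 12M. The labels call the controls wild type and give the genotype of the 2M mutant and the non-tumor section as HKO8, while the tumor has no genotype label. Both sections of the mutant liver are coded with animal number 24, and the sample codes of all 12M libraries start with M13. Cre was driven by the promoter of albumin, itself 1 of the 44 genes, and cells that do not express albumin keep Srsf2. With 1 library per condition there are no replicates: no p-value is given, a difference is between 2 libraries, and intervals cover counting error only. In whole tissue, fewer hepatocytes and less RNA per hepatocyte cannot be told apart.

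Hepatocytes secrete most proteins of the plasma. Clotting runs as a cascade of proteases that ends with thrombin cutting fibrinogen to fibrin, and inhibitors made by the same cells hold it in check. Complement is a second cascade: mannose-binding lectins and other sensors lead to cleavage of C3, and the terminal components C6, C8 and C9 take part in the pore that is built into a target membrane. Several of these genes are known to be raised by the liver in inflammation and others to be lowered. Whether the set as a whole followed that pattern was not tested.

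The 44 genes took 12.6% of the summed FPKM in the 2M control and 15.5% in the 2M HKO liver. At 12M their share was 11.7% in the control, 13.02% in non-tumor tissue and 13.9% in the tumor. Alb, the gene of albumin, had the highest FPKM of all records in each library. Without Alb the summed level of the other 43 genes was 31483 FPKM in the 2M control and 42707 in the 2M HKO liver. At 12M it was 27761 in the control, 29703 in non-tumor tissue and 40199 in the tumor. In this sum the mutant liver at 2M and the tumor stood above both controls. Ahsg alone held 14646 FPKM of it in the tumor and 4648 in the 12M control. At 2M Ahsg held 11487 FPKM in the HKO liver and 6197 in the control. Between 7 and 9 of the 44 were among the 50 records of highest FPKM in every library. Worked back from the values, the libraries held 34969834 to 36104176 fragments, and Srsf2 itself lay between 14.6 and 22.7 FPKM, highest in the 2M HKO liver. The paper reports that Srsf2 protein, lacking in young HKO livers, was detected again at the ages sequenced here. It also reports that splicing events altered in young HKO livers had returned to wild-type patterns by these ages. The mutant libraries are therefore not read as profiles of hepatocytes without Srsf2.

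The level of each gene is plotted by library on a log scale. Alb, Ttr, Ahsg, Vtn, Fga, Fgb, Fgg and C3 had high levels in all 5 libraries, the lowest of their values being 1085 FPKM for Fga in the 12M control, and at the other end C2 and Cfb did not reach 5 FPKM in any. Of the 42 genes over 5 FPKM, 15 differed by less than 2-fold between their highest and lowest library, 20 by 2-fold to 4-fold and 7 by more. The last group held Itih1, Itih3, C6, C8a, C8b, C8g and Mbl2. The tumor had the highest level of 13 of the 44 genes and the lowest of 17, whereas the non-tumor section had the highest of 6 and the lowest of 2.

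**Figure D1:**
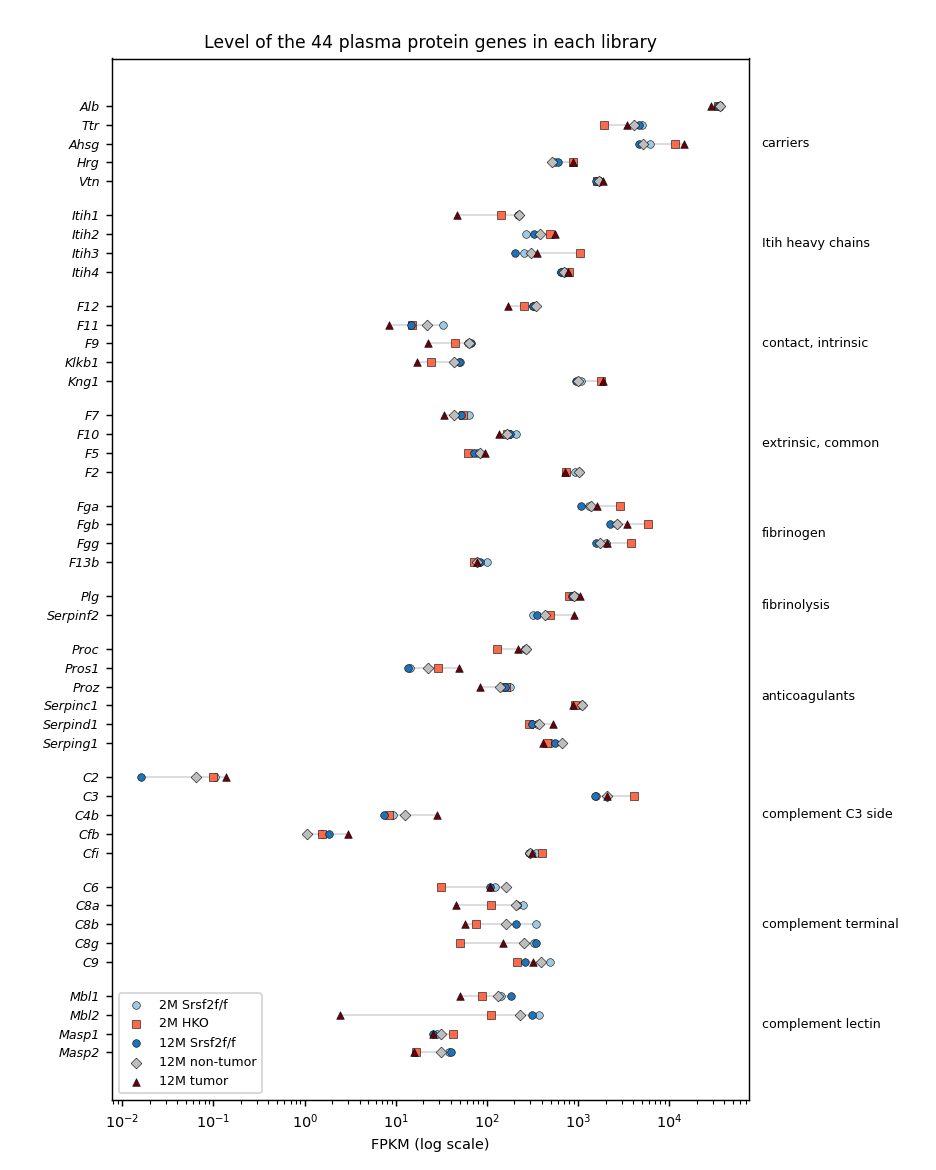
FPKM of the 44 plasma protein genes in each of the 5 libraries, on a log axis, grouped by role, with 1 symbol per library and a grey line over the range. Of the 42 genes over 5 FPKM, 15 differ by less than 2-fold between libraries, and the tumor's Mbl2 at 2.44 FPKM lies farthest from the other libraries of its gene among genes over 5 FPKM.

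A gene was called higher or lower where the log2 ratio of FPKM, with 0.1 FPKM added to each value, was over 1 or under -1 and the level was over 5 FPKM in at least 1 of both libraries. This is the fold and level part of the study's own rule. The same 42 of 44 genes passed the minimum in each comparison, all except C2 and Cfb. The pair of control livers shows how far 2 animals of different age differed: none of the 42 was called higher in the 12M than in the 2M Srsf2f/f liver, where 2.39% of all 6114 genes tested were, and F11 was called lower, where 2.09% were. The control livers differed by a median of 1.12-fold over the 42 genes, and 39 differed by less than 1.5-fold. In the 2M HKO liver against the 2M control, 5 genes were called higher, 11.9% of the 42 beside 19.2% of 7220 genes tested, and 11 were called lower, 26.2% beside 6.98%. In the non-tumor section against the 12M control, no gene was called higher, beside 6.14% of 6481 genes tested, and none lower, beside 1.73%. In the tumor against the non-tumor section, 4 were called higher, 9.52% beside 17.7% of 7618, and 9 lower, 21.4% beside 8.43%. In the tumor against the 12M control, 5 were called higher, 11.9% beside 27.4% of 7553, and 9 lower, 21.4% beside 9.49%. In these 3 comparisons with calls, the share of the genes called lower was thus above that of all genes tested, and the share called higher below it.

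The median log2 ratio of the 42 genes was -0.22 for 2M HKO against control, 0.08 for non-tumor against control, -0.28 for tumor against non-tumor, -0.07 for tumor against control and -0.13 between the controls. Over all genes tested it was 0.23, 0.14, 0.23, 0.43 and -0.01 in the same order. The median ratio of genes expressed in every library shifted by 0.25, 0.19, 0.16, 0.35 and -0.04, and relative to it the second of these medians turns to -0.11. Scaled to the sum of FPKM instead, as TPM, the fourth turns to 0.087. The 3 comparisons within 12M share libraries with each other, so their values are not independent. The 2M and the tumor against non-tumor comparisons share none. F11, Klkb1, C8a, C8b and Mbl2 were called lower in both comparisons. They are 5 of the 11 genes lower at 2M and 5 of the 9 lower in the tumor, and Pros1 was called higher in both. How many of all genes tested were called in both was not counted, so this overlap is not shown to be particular to the set. In all, 24 of the 44 genes were called in at least 1 comparison, no gene was called in opposite directions, and 20 were called in none. These counts were not made over all genes either.

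**Figure D2:**
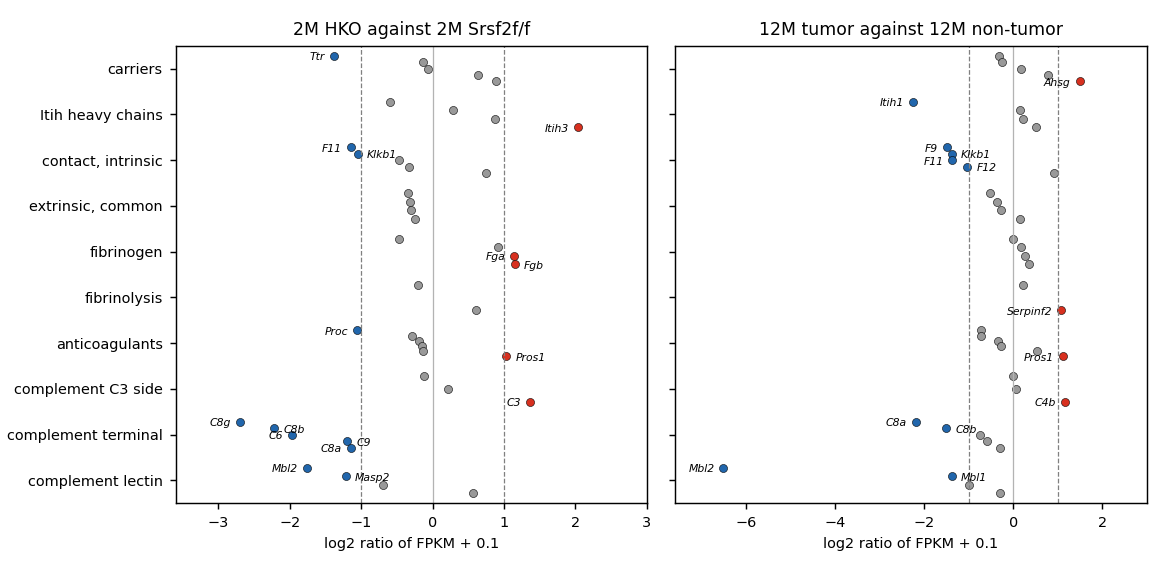
The log2 ratio of each plasma protein gene over 5 FPKM, by role, for 2M HKO against 2M Srsf2f/f (left) and 12M tumor against non-tumor (right), on axes of different range. Genes called higher are red and genes called lower blue, dashed lines mark 1 and -1. All 5 terminal complement genes lie to the left of -1 at 2M, and Mbl2 lies at -6.52 in the tumor.

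Among the carriers, Alb differed little between libraries while Ahsg and Ttr did not follow it. Alb, on chromosome 5 of GRCm38 from 90460870 to 90476602, was at 35555 FPKM in the control and 34154 in the HKO liver at 2M, and 34306 in the control, 35874 in non-tumor tissue and 28781 in the tumor at 12M. The tumor was lowest, with a log2 ratio of -0.32 to the non-tumor section, and no comparison reached the call. Ahsg, on chromosome 16 from 22892015 to 22899451, encodes fetuin-A, an inhibitor of mineral deposition. It was at 6197 and 11487 FPKM in the 2M control and HKO livers, and 4648, 5203 and 14646 FPKM in the 12M control, non-tumor tissue and tumor. The tumor was above every other library, 2.82-fold over the non-tumor section with a 95% exact binomial interval of 2.80 to 2.83 for the ratio, and Ahsg ranked 3 by FPKM among all records there. The ratio of Alb to Ahsg was 5.74 and 7.38 in the 2M and 12M controls, 6.90 in the non-tumor section, 2.97 in the 2M HKO liver and 1.97 in the tumor. Ttr, which encodes the thyroxine carrier transthyretin, was at 5017 FPKM in the 2M control and 1925 in the 2M HKO liver, a log2 ratio of -1.38 and the only call among the carriers at 2M. At 12M its level was 4683 in the control, 4130.3 in non-tumor tissue and 3479 in the tumor. Hrg, which encodes a histidine-rich glycoprotein of the plasma, lay between 515 and 888 FPKM. Vtn, the gene of the adhesion protein vitronectin, lay between 1567 and 1883 FPKM, and neither was called.

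Itih1 to Itih4 encode heavy chains of the inter-alpha-trypsin inhibitor family, some of which bind hyaluronan in the matrix. Itih1, Itih3 and Itih4 lie side by side on chromosome 14 and did not move together. Itih1, from 30929180 to 30943289, was at 217 FPKM in the 2M control and 144 in the 2M HKO liver, and at 12M 224 in the control, 224 in non-tumor tissue and 46.8 in the tumor. Only the tumor stood far off, 4.79-fold below the non-tumor section (95% exact binomial interval 4.65 to 4.93). Itih3, from 30908572 to 30923755, was at 254 FPKM in the control and 1043 in the HKO liver at 2M, and 204 in the control, 303 in non-tumor tissue and 353 in the tumor at 12M. Here the 2M HKO liver stood apart, 4.10-fold above its control (4.05 to 4.16), the highest log2 ratio of the 42 genes at 2M, 2.04. Itih3 thus exceeded Itih1 in FPKM by 1.17-fold in the 2M control, 7.26-fold in the 2M HKO liver, 1.35-fold in the non-tumor section and 7.54-fold in the tumor, while the ratio was 0.910 in the 12M control. Itih4 stayed between 649 and 788 FPKM. Itih2, on chromosome 2, ranged from 269.6 FPKM in the 2M control to 552 in the tumor, and neither Itih2 nor Itih4 was called.

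The contact and intrinsic pathway starts clotting on a foreign surface. F12, F11 and F9 encode factors XII, XI and IX, Klkb1 plasma prekallikrein, and Kng1 the kininogen from which bradykinin is released. Of these 5 genes, 2 were called lower in the 2M HKO liver, beside 6.98% of all genes tested. In the tumor against the non-tumor section 4 were called lower, beside 8.43%. F12 was at 317 and 253 FPKM in the 2M control and HKO livers, and 318, 347 and 169 FPKM in the 12M control, non-tumor tissue and tumor. F9, the hemophilia B gene on the X chromosome, was at 62.7, 45.1, 66.7, 63.6 and 22.5 FPKM in the same libraries. In both genes the tumor was the lowest library, with log2 ratios to the non-tumor section of -1.03 for F12 and -1.50 for F9. F11 and Klkb1 are neighbours on chromosome 8. Klkb1 was at 50.4 FPKM in the 2M control and 24.3 in the 2M HKO liver, and at 12M 49.0 in the control, 43.9 in non-tumor tissue and 16.9 in the tumor. F11 was at 33.1 FPKM in the control and 14.9 in the HKO liver at 2M, and 14.8 in the control, 21.8 in non-tumor tissue and 8.36 in the tumor at 12M. Its controls differed by 2.24-fold, as much as the 2M HKO liver did from its own control, and against the 12M control the log2 ratio of the 2M HKO liver was 0.0091. For Klkb1 the controls differed by a log2 ratio of -0.04, and its ratio of -1.05 at 2M becomes -0.95 as TPM, under the threshold in size. Kng1 was highest in the tumor and the 2M HKO liver: it was at 1064 and 1777 FPKM in the 2M control and HKO livers, and 944, 1003 and 1898 FPKM in the 12M control, non-tumor tissue and tumor. It was called higher only in the tumor against the 12M control, at 1.01, which becomes 0.66 relative to the shift of expressed genes. Kng1 has a near-identical paralog, Kng2, at 115.0, 194.9, 93.0, 115 and 306 FPKM in the 5 libraries, and fragments may be split between them with uncertainty.

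In the extrinsic and common pathway, F7, F10, F5 and F2 encode factor VII, factor X, factor V and prothrombin, and none was called in any comparison. F2 was at 913 FPKM in the 2M control and 742 in the 2M HKO liver, and at 12M 1023 in the control, 1018 in non-tumor tissue and 712 in the tumor. Its ratio to Serpinc1, the gene of antithrombin, which inhibits thrombin, stayed between 0.796 and 0.935 in the 5 libraries. F7 ranged from 33.7 FPKM in the tumor to 64.0 in the 2M control and F10 from 137 in the tumor to 209 in the 2M control. F5 ranged from 62.4 in the 2M HKO liver to 94.1 FPKM in the tumor, so the tumor was lowest for F7, F10 and F2 and highest for F5.

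Fibrinogen is assembled from the products of Fga, Fgb and Fgg, which lie together on chromosome 3, and all 3 genes were highest in the 2M HKO liver. Fga, from 83026153 to 83033627, was at 1319 FPKM in the control and 2909.7 in the HKO liver at 2M, and 1085 in the control, 1399.7 in non-tumor tissue and 1592 in the tumor at 12M. Fgb, from 83042246 to 83049863, was at 2659, 5899, 2225, 2664 and 3421 FPKM in the same order. Fgg, from 83007724 to 83015056, was at 2018, 3819.5, 1589.8, 1722 and 2058 FPKM. The 2M HKO liver had 2.21-fold the level of its control for Fga (95% exact binomial interval 2.19 to 2.22), 2.22-fold for Fgb (2.21 to 2.23) and 1.89-fold for Fgg (1.88 to 1.91). Fga and Fgb were called higher and Fgg, with a log2 ratio of 0.92, was just short. Relative to the shift of expressed genes the log2 ratios were 0.89, 0.90 and 0.67, and none reached 1. The ratio of Fgb to Fga in FPKM varied little: it was 2.02 and 2.03 in the 2M control and HKO livers, 2.05 in the 12M control, 1.90 in non-tumor tissue and 2.15 in the tumor. The ratio of Fgb to Fgg lay between 1.32 and 1.66. F13b, which encodes the carrier subunit of the enzyme that crosslinks fibrin, lay between 71.9 and 99.5 FPKM and was not called.

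The 250 bases before the start of each fibrinogen gene are shown because the 3 genes were highest in the same library. They are from RefSeq on GRCm38.p6, 5′ to 3′ on the strand of the gene, with matches of the searched motifs in capitals.
Fga, chr3:83025903-83026152, plus strand: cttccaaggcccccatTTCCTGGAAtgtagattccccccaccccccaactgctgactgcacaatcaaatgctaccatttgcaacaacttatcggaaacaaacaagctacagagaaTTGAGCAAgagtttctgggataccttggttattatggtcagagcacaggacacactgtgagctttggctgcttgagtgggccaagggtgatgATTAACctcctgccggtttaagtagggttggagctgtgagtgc
Fgb, chr3:83049864-83050113, minus strand: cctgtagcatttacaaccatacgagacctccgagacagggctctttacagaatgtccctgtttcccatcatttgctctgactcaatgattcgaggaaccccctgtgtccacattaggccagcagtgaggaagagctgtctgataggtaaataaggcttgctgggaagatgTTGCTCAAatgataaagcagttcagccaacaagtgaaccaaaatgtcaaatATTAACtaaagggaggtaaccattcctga
Fgg, chr3:83007474-83007723, plus strand: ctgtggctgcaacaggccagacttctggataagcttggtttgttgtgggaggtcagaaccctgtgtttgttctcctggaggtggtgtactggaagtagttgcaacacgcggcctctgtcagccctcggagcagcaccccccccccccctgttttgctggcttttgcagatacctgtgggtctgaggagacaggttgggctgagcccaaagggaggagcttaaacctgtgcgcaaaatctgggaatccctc
The capitals mark, on either strand, TTCCNGGAA of STAT factors, TTGCNNAA of C/EBP factors and GTTAAT, a part of the HNF1 site. The window of Fga holds all 3, that of Fgb holds TTGCNNAA and GTTAAT, and that of Fgg none. In the windows of 300 bases that RefSeq gave for 34 of the 44 genes, from 250 bases before to 50 after the start, GTTAAT was found in 10, 29.4% beside 7.10% of all 32851 windows, and TTGCNNAA in 12, 35.3% beside 10.8%. TTCCNGGAA was found in 2, Fga and Pros1, 5.88% beside 1.15%. TATAAA was found in 6, 17.6% beside 13.6%, TGTTTAC of FOXA factors in 2, F11 and Klkb1, 5.88% beside 3.65%, and CAAAGTCCA of HNF4 in 0, beside 0.475%. Each motif was searched on both strands, no matched letters of Fga, Fgb or Fgg overlap, and a match is a description of letters only. For some genes, among them C8a and Mbl2, the start used for the window lies inside the gene record.

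Plg and Serpinf2 encode plasminogen, the precursor of the protease that dissolves fibrin, and its inhibitor alpha-2-antiplasmin. Plg stayed between 794 and 1043 FPKM and was not called. Serpinf2 was at 321 and 491 FPKM in the 2M control and HKO livers, and 357, 432 and 912 FPKM in the 12M control, non-tumor tissue and tumor. The tumor was 2.11-fold above the non-tumor section (2.08 to 2.14), a log2 ratio of 1.08 that becomes 0.91 relative to the shift of expressed genes. The ratio of Plg to Serpinf2 in FPKM was 2.86 and 2.39 in the 2M and 12M controls, 2.08 in the non-tumor section, 1.62 in the 2M HKO liver and 1.14 in the tumor.

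Among the anticoagulants, the genes of protein C and its cofactor protein S were called in opposite directions at 2M. Proc, the gene of protein C, which inactivates factors V and VIII, was at 269 FPKM in the 2M control and 129 in the 2M HKO liver, and at 12M 262 in the control, 269 in non-tumor tissue and 221 in the tumor. Pros1, the gene of protein S, was at 14.2 FPKM in the control and 29.2 in the HKO liver at 2M, and 13.6 in the control, 22.8 in non-tumor tissue and 49.3 in the tumor at 12M. Proc was lowest and Pros1 above both controls in the 2M HKO liver, with log2 ratios of -1.05 and 1.03, both called. Pros1 was also called higher in the tumor, at 1.11 to the non-tumor section. With the shift of expressed genes taken off, Pros1 was at 0.79 and 0.95 in these comparisons, under the threshold, and Proc at -1.30. Scaled as TPM, Proc was at -0.95 at 2M, so neither call at 2M was kept under every scaling. The ratio of Proc to Pros1 in FPKM was 18.9 and 19.3 in the 2M and 12M controls, 11.8 in the non-tumor section, 4.43 in the 2M HKO liver and 4.49 in the tumor. Protein S is also made by endothelial cells, whose markers summed to 98.8 FPKM in the 2M control and 132 in the 2M HKO liver. At 12M the sum was 98.6 in the control, 81.9 in non-tumor tissue and 226 in the tumor. From the 12M control to the non-tumor section this sum was lower, whereas Pros1 was higher. In the tumor against the non-tumor section, 3 of 5 of these markers were called higher and Clec4g lower. The part of endothelial cells in the Pros1 level was not tested. Serpinc1 lay between 876 and 1114 FPKM. Serpind1, the gene of heparin cofactor II, lay between 289 and 537, and Serping1, the gene of the C1 inhibitor, between 407 and 671. Proz, the gene of protein Z, lay between 84.4 in the tumor and 178 in the 2M control, and none of these 4 was called. The proteins of 7 genes of the set, F2, F7, F9, F10, Proc, Pros1 and Proz, need vitamin K for their Gla residues. Of these, 1 was called higher and 1 lower in each of the 2M, tumor against non-tumor and tumor against control comparisons. Of all genes tested, 19.2%, 17.7% and 27.4% were called higher in these comparisons, and 6.98%, 8.43% and 9.49% lower.

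C3 is the component on which all complement routes converge. Its level was 1583 and 4093 FPKM in the 2M control and HKO livers, and 1547, 2085 and 2082 FPKM in the 12M control, non-tumor tissue and tumor. The 2M HKO liver was highest, 2.59-fold above its control (2.57 to 2.60), and the log2 ratio of 1.37 remained over 1, at 1.12, relative to the shift of expressed genes. Cfi, which encodes the protease that inactivates C3b, stayed between 286 and 397 FPKM. C4b was at 9.26, 8.48, 7.40, 12.7 and 28.6 FPKM in the 2M control, 2M HKO liver, 12M control, non-tumor section and tumor, and was called higher in the tumor with a log2 ratio of 1.17. The records of C2, Cfb and C4b lie on a scaffold outside the numbered chromosomes, 141 of whose 157 records were under 1 FPKM in every library. RefSeq has these 3 genes on chromosome 17 of GRCm38.p6 with spans of 19499, 6141 and 15764 bases, where the deposited records span 88983, 75575 and 85289. C2 was at 0.0161 to 0.136 FPKM and Cfb at 1.07 to 2.95, and these levels are not read as the expression of the genes. The level of C4b is subject to the same limit, and its near-identical paralog C4a was at 0.149 FPKM or less.

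The terminal components were the group with most calls at 2M: all 5 were called lower in the 2M HKO liver, beside 6.98% of all genes tested, and their summed level was 1534 FPKM in the 2M control and 482 in the 2M HKO liver. C8g, on chromosome 2 from 25498650 to 25501719, encodes the gamma chain of C8, a lipocalin. It was at 329 FPKM in the 2M control and 50.7 in the 2M HKO liver, and at 12M 342 in the control, 253 in non-tumor tissue and 150.1 in the tumor. The 2M HKO liver was 6.50-fold below its control (6.19 to 6.83), the lowest log2 ratio of the 42 genes at 2M, -2.70. C8b, on chromosome 4 from 104766317 to 104804548, encodes the beta chain. It was at 349 FPKM in the control and 74.9 in the HKO liver at 2M, and 207 in the control, 163 in non-tumor tissue and 57.2 in the tumor at 12M. Both the 2M HKO liver and the tumor were below the other libraries, with log2 ratios of -2.22 at 2M and -1.51 to the non-tumor section, while the controls differed by -0.75. C8a, its neighbour from 104815679 to 104876487, encodes the alpha chain, and its level was 247, 112, 213, 206 and 45.3 FPKM in the same order of libraries. The tumor was 4.55-fold below the non-tumor section (4.42 to 4.68). C6 was at 122 and 31.2 FPKM in the 2M control and HKO livers, and 108, 161 and 107 FPKM in the 12M control, non-tumor tissue and tumor, and only the 2M HKO liver was far from the rest. C9, which forms the ring of the pore, was at 486 FPKM in the 2M control and 213 in the 2M HKO liver, and at 12M 259 in the control, 388 in non-tumor tissue and 318 in the tumor. Its log2 ratio was -1.19 at 2M, where the control was the highest library, and the controls differed by -0.91. Against the 12M control, the log2 ratio of the 2M HKO liver was -0.29 for C9 and -0.93 for C8a, and 3 of the 5 genes, C6, C8b and C8g, remained called.

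The chains of C8 did not keep their proportions. The ratio of C8g to C8a in FPKM was 1.33 and 1.60 in the 2M and 12M controls, 1.23 in the non-tumor section, 0.452 in the 2M HKO liver and 3.32 in the tumor. The ratio of C8b to C8a was 1.41, 0.669, 0.970, 0.791 and 1.26 in the 2M control, the 2M HKO liver, the 12M control, the non-tumor section and the tumor. Of the 3 chains, gamma thus had the lowest log2 ratio at 2M and alpha the lowest in the tumor against the non-tumor section. The records of C8g and C8a each overlap another record over 5 FPKM, Fbxw5 and 1700024P16Rik, so part of their fragments may belong to these. Windows of 250 bases at the start of the 3 genes are shown for comparison with those of fibrinogen, with the same source and the same meaning of capitals.
C8a, chr4:104876399-104876648, minus strand: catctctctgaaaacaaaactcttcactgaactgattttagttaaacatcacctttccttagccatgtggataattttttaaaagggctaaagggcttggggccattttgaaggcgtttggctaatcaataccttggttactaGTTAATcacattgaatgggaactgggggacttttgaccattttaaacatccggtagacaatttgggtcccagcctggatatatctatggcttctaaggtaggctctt
C8b, chr4:104766067-104766316, plus strand: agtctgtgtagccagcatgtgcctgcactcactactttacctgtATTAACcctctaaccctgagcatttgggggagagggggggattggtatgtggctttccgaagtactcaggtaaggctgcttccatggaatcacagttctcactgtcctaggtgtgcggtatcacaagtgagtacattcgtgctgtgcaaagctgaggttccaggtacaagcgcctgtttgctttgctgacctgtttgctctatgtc
C8g, chr2:25501720-25501969, minus strand: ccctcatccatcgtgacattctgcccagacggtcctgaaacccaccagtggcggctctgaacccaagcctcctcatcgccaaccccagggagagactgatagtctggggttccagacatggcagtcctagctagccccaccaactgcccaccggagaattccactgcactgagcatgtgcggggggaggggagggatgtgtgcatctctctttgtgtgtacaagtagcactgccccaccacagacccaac
The windows of C8a and C8b hold GTTAAT once each, 107 and 206 bases before the start used for the window. That of C8g holds none of the motifs searched. On the minus strand the record of C8a starts at 104876487, inside the window shown. The start used for that window thus lies within the gene record.

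The lectin pathway held the largest difference of the set. Mbl2, on chromosome 19 from 30232906 to 30239686, encodes mannose-binding lectin C, which recognises sugars on microbes. Its level was 371 FPKM in the control and 109 in the HKO liver at 2M, and 309.9 in the control, 232 in non-tumor tissue and 2.44 in the tumor at 12M. The tumor value rests on 94 fragments and is 95.2-fold below the non-tumor section (77.7 to 118.0) and 127-fold below the 12M control (104 to 158). Mbl1, the gene of mannose-binding lectin A on chromosome 14, was at 144 and 89.2 FPKM in the 2M control and HKO livers, and 184, 133 and 50.8 FPKM in the 12M control, non-tumor tissue and tumor. It too was lowest in the tumor, with a log2 ratio of -1.39 beside -6.52 for Mbl2, and the ratio of Mbl2 to Mbl1 in FPKM was 2.58, 1.23, 1.68, 1.75 and 0.048 in the order of libraries given. Masp1 and Masp2 encode the proteases that the lectins carry. Masp1 ranged from 25.4 to 42.0 FPKM and was not called. Masp2 was at 38.6 FPKM in the 2M control and 16.6 in the 2M HKO liver, and at 12M 40.7 in the control, 31.3 in non-tumor tissue and 15.7 in the tumor, and its record lies on a scaffold while RefSeq has it on chromosome 4. It was called lower at 2M, at -1.21, and in the tumor against the 12M control, at -1.37. Against the non-tumor section its log2 ratio was -0.99, just inside the threshold. The summed level of the 4 lectin pathway genes was 427 FPKM in non-tumor tissue and 94.5 in the tumor. A window of 250 bases at the start of Mbl2 is shown since no other gene of the set differed as much.
Mbl2, chr19:30232678-30232927, plus strand: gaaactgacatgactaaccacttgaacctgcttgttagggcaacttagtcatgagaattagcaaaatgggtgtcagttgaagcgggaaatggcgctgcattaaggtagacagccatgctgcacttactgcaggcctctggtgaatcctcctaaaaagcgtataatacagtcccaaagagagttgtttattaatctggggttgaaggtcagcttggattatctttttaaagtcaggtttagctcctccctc
None of the motifs searched is in this window, which runs past the start of the gene record at 30232906.

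**Figure D3:**
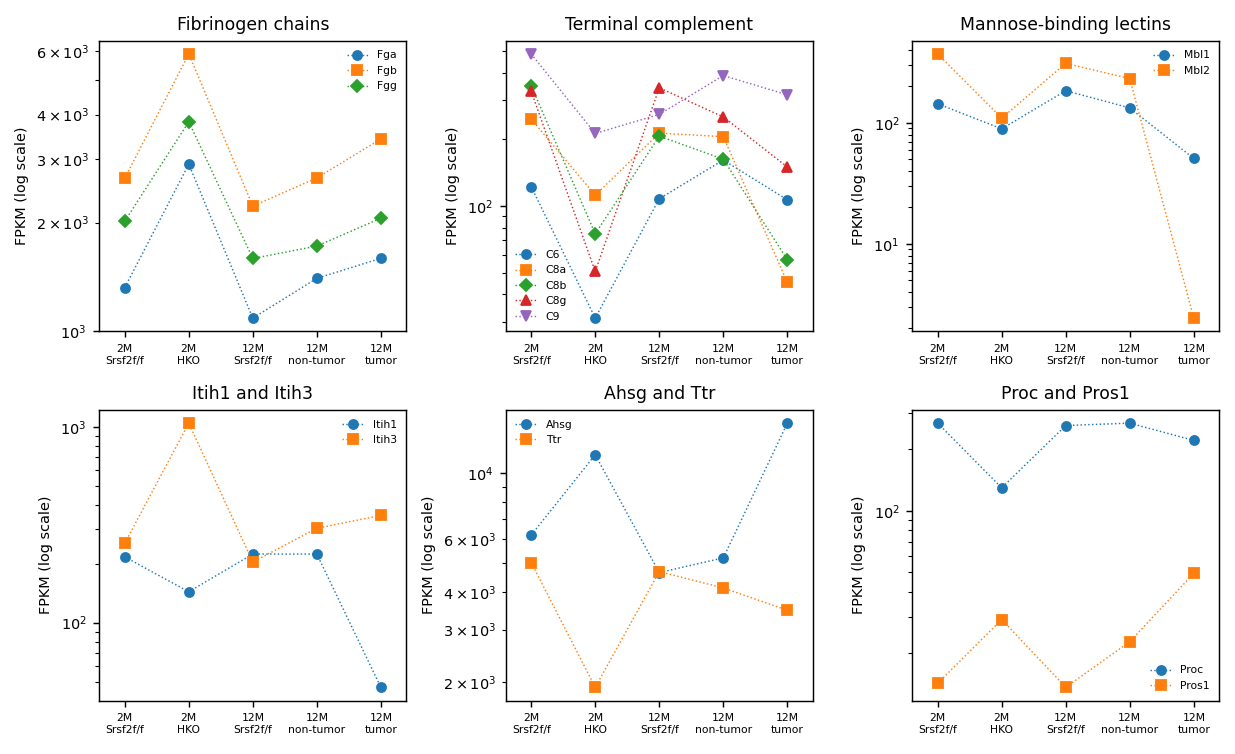
FPKM on log axes in the 5 libraries for 6 groups of plasma protein genes, with 1 symbol per gene and dotted lines that only join the values of a gene. The fibrinogen chains run in parallel and peak in the 2M HKO liver, the terminal complement genes are low there, and Mbl2 drops to 2.44 FPKM in the tumor while Mbl1 is at 50.8.

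The median log2 ratio of tumor to non-tumor over all expressed genes differed between chromosomes. It was 0.80 over the expressed genes of chromosome 16 and 0.83 over those of chromosome 15, -0.62 over chromosome 13, -0.61 over X and 0.14 over all. On chromosome 16 lie 6 of the genes, with a median of 0.85: Ahsg, Pros1, Kng1, Hrg and Serpind1 between 0.54 and 1.49, and Masp1 at -0.29. Of the 40 genes on numbered chromosomes or X, 12 were past a log2 ratio of 1 in size, and 7 of these were also past it relative to their own chromosome: Itih1, F11, Klkb1, C8a, C8b, Mbl1 and Mbl2. The other 5 were not, with Ahsg at 0.70, Pros1 at 0.31, Serpinf2 at 0.87, F12 at -0.41 and F9 at -0.89. Relative to chromosome 15, C6 and C9 lay at -1.42 and -1.12, and Masp1 lay at -1.08 relative to chromosome 16, all past the threshold on this scale only. The part of the chromosome in these values was not tested, since no DNA was measured.

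**Figure D4:**
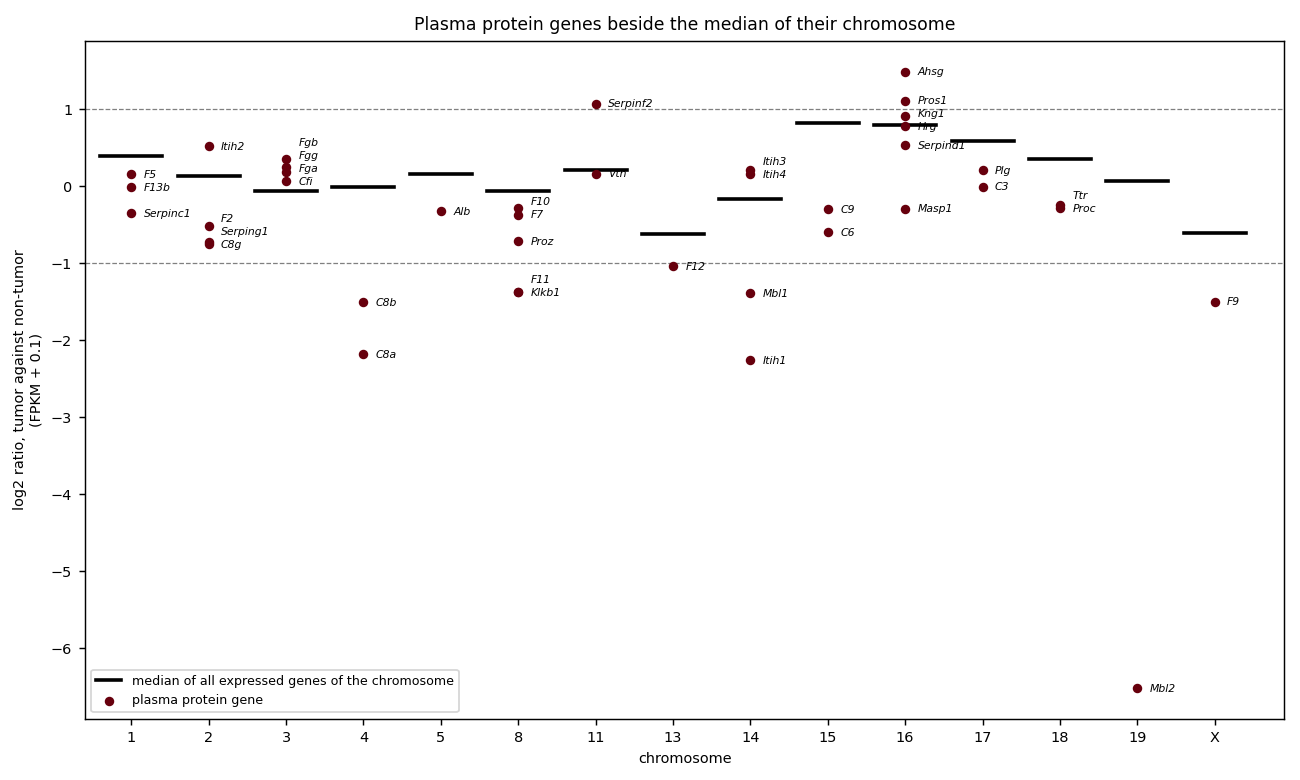
The log2 ratio of tumor to non-tumor for the 40 plasma protein genes on numbered chromosomes or X (points), beside the median over all expressed genes of the same chromosome (bars), with dashed lines at 1 and -1. Pros1, Kng1, Hrg and Serpind1 lie within 0.31 of the bar of chromosome 16 and Ahsg 0.70 above it, while Mbl2, Itih1 and C8a lie far below their bars.

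Of 19 clotting and fibrinolysis genes outside the set, many of them active in vessel walls and injured tissue, 9 of the 14 over the minimum were called higher and none lower in the tumor against the non-tumor section, and 6 of 12 higher and 2 lower in the 2M HKO liver. Plat, the gene of tissue plasminogen activator, was at 0.0560 and 8.60 FPKM in the 2M control and HKO livers, and 0.0111, 4.93 and 18.4 FPKM in the 12M control, non-tumor tissue and tumor, so it was near 0 in the controls. Thbd, the gene of thrombomodulin, with which thrombin activates protein C, had log2 ratios of 2.37 at 2M and 2.56 in the tumor against the non-tumor section. Of 9 genes for the processing and export of clotting factors 7 were over the minimum and none was called in any comparison. For comparison with these lists and those below, 19.2% of all genes tested were called higher and 6.98% lower at 2M. In the tumor against the non-tumor section 17.7% were called higher and 8.43% lower. In the non-tumor section against its control 6.14% were called higher and 1.73% lower.

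Of 26 other complement genes, 8 of the 19 over the minimum were called higher and 1 lower in the 2M HKO liver. The 8 were C1qa, C1qb, C1qc, Cfp, Clu, C3ar1, C5ar1 and Vsig4. C1qa is also counted among the macrophage and Kupffer cell markers below, so these 2 lists are not separate. In the tumor against the non-tumor section, 1 of 18 was called higher and 5 lower. Vsig4, the complement receptor of Kupffer cells, was at 22.1 and 73.9 FPKM in the 2M control and HKO livers, and 19.2, 16.2 and 0.116 FPKM in the 12M control, non-tumor tissue and tumor. Hc, the gene of C5, was picked after its values were seen because it belongs to the terminal pathway. Its log2 ratio was -0.34 at 2M and -0.76 in the tumor against the non-tumor section, and it was called in neither. Of 21 other hepatocyte plasma proteins, 20 were over the minimum, 1 of them called higher and 4 lower at 2M, and 1 higher and 7 lower in the tumor against the non-tumor section. Igfals, the gene of a carrier of insulin-like growth factors, was at 78.4 FPKM in the 2M control and 7.50 in the 2M HKO liver, and at 12M 67.8 in the control, 46.0 in non-tumor tissue and 7.58 in the tumor. Of 12 hepatocyte transcription factors, none was called higher and 4 lower at 2M, among them Foxa1 and Onecut1, and Foxa1 was called lower in the tumor against the non-tumor section.

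Markers of cell types moved between the same libraries. Of 10 hepatocyte markers 9 were over the minimum, and 4 of these were called lower at 2M, 6 in the tumor against the non-tumor section and 1 in the non-tumor section against its control, with none higher. Their median log2 ratios were -0.43, -1.50 and -0.24, and all were detected in every library. Of 10 macrophage and Kupffer cell markers, 9 were called higher at 2M, where their summed level was 288 FPKM in the control and 1697 in the HKO liver, and 4 of 9 were called lower in the tumor, with sums of 446 and 416 and 1 marker at 0 in the tumor. Endothelial markers summed to 81.9 FPKM in non-tumor tissue and 226 in the tumor, with 3 of 5 called higher and 1 lower, and 2 of 7 were called higher at 2M. Stellate cell and myofibroblast markers had 6 of 7 called higher at 2M, and 5 of 7 higher and 2 lower in the tumor. Biliary markers summed to 23.3 FPKM in the 2M control and 399 in the 2M HKO liver, with 1 of 2 called higher, and to 271 in non-tumor tissue and 2079 in the tumor, with 3 of 4 higher and 1 lower. Neutrophil markers, 4 of 4 called higher at 2M, summed to 2.12 FPKM in the control and 143 in the HKO liver, and dividing cell markers, also 4 of 4 higher, to 1.06 and 42.9. Of 5 red cell markers, 4 were called higher and 1 lower both at 2M and in the tumor against the non-tumor section. Megakaryocyte and platelet markers summed to 8.61 FPKM or less in every library. In the non-tumor section against its control, 4 of 6 stellate cell and myofibroblast markers were called higher. So were 3 of 8 macrophage and Kupffer cell markers, 2 of 2 neutrophil markers and 2 of 3 biliary markers. None in these lists was called lower there, while 1 of 6 endothelial markers was. The part of these cell types in the levels of the plasma protein genes was not tested.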

How the data were processed

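The authors made 5 paired-end RNA libraries from mouse livers or liver sections, 1 per condition. The authors deposited FPKM for 46095 gene records with gene lengths and coordinates. Bowtie 0.12.2 and GRCm38 appear in the submitters' processing notes, and the counter and annotation are not given in the sources used here. Values multiplied by length came in steps of the same size in a library (98.7% to 98.8% of values above 0, tolerance 0.01), which gave 34969834 to 36104176 fragments. Between 58.8% and 61.0% of counts from 2 to 21 were even, so some units may be single reads of a pair and intervals may be too narrow.

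Ratios are log2 of FPKM with a pseudocount of 0.1, and a call needs this ratio past 1 or -1 with either library above 5 FPKM. The authors' EBSeq test was not run. Intervals are 95% exact binomial intervals on fragments. The scaling shift is the median over 9099 genes above 1 FPKM in every library, and for chromosome medians a gene needed a mean above 5 FPKM. Members and gene lists were chosen with earlier results of these data known. All 44 genes are accounted for. The level in every library is given for each gene called in any comparison and for the 5 of highest mean. Outside the set, genes called in at least 2 comparisons or paralogs could be named, and a selection of them is, with Hc as an exception; some are not reported here. Of the gene symbols listed, 1 was not found in the table. The code was tested on simulated data. Alternatives were another pseudocount, minimum, scaling or control liver, and leaving out paralogs or scaffold records. Protein sequences were not analysed here. Tools were matplotlib 3.10.9, scipy 1.17.1, pandas 2.3.3 and numpy 2.4.6 under Python 3.11.15.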

Additional observations from a re-analysis of the deposited data

How the results depend on the processing

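No paired analysis was possible because each condition has 1 library. Pseudocounts of 0.01 and 1 FPKM, minimums of 1 and 20 FPKM, and leaving out scaffold records left every count of called genes within 1.5 times. Pros1 lost its call at 2M with a pseudocount of 1. With the shift of expressed genes taken off, 2 genes were called higher at 2M, without Fga, Fgb and Pros1, 2 in tumor against non-tumor, without Serpinf2 and Pros1, and 3 in tumor against the 12M control, without Kng1 and Serpinf2. The member medians became -0.47, -0.11, -0.44 and -0.42 for 2M, non-tumor against control, tumor against non-tumor and tumor against control, because this scaling subtracts the shift. As TPM they were -0.12 at 2M, 0.16 for non-tumor against control and 0.087 for tumor against control, and Klkb1 and Proc lost their calls at 2M. Tumor against control had 3 higher genes and a median of -0.18 without Kng1 and C4b, and a median of -0.016 with a minimum of 1 or of 20 FPKM.

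With the control liver of the other age, an alternative chosen after seeing the data, the medians were -0.10 at 2M, -0.014 for non-tumor and -0.28 for tumor. The 2M HKO liver then had 16 calls, of which 13 were shared with those against its own control, without F11, C8a and C9, and F11 turned to 0.0091. C8b was the 1 gene called lower in the non-tumor section. A single library per condition limits every result, since the variation between animals is unknown, and among the genes over 5 FPKM the tumor value of Mbl2 is the least precise, at 94 fragments.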
